A study of Homo sapiens with 12 samples.

Results

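The comparison described here sets Ovcar8 cells that overexpressed CCNE1 and carried the first short hairpin RNA against TMLHE, called shTMLHE 1, beside Ovcar8 cells that overexpressed CCNE1 alone. Its members are the 3 libraries of each of these groups, chosen by their labels, so 6 of the 12 libraries of the series. Of the 58735 genes in the deposited count table, 15378 had enough counts to be tested.

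Ovcar8 is a long-used cell line from an ovarian tumour of the high-grade serous type. TMLHE encodes trimethyllysine hydroxylase, a mitochondrial enzyme that uses alpha-ketoglutarate and oxygen to hydroxylate trimethyllysine, the entry step of carnitine synthesis. Carnitine carries fatty acyl and acetyl groups across the inner mitochondrial membrane, and acetyl-CoA is the substrate of histone acetyltransferases. CCNE1 encodes cyclin E1, which activates the kinase CDK2 at the start of S phase and is amplified in a share of high-grade serous tumours. Metallothioneins, whose genes figure largely below, are small cysteine-rich proteins that bind zinc and copper, and their genes are switched on by the zinc-sensing factor MTF1 through short promoter motifs called metal response elements.

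Both groups shared the CCNE1 construct, the RPMI-1640 medium with 5% serum, transduction with lentivirus and selection in 3 ug/ml puromycin over 2 to 3 days. The hairpin is the difference that the labels name, and no batch of preparation or sequencing is among the labels used here. Any difference in preparation between the groups therefore cannot be told apart from the hairpin. No group with a hairpin against another target is among the labels. A further group of 3 libraries carried CCNE1 and the other TMLHE hairpin, shTMLHE 2, and 3 libraries were controls without CCNE1 overexpression. The labels do not say that the replicates were separate cultures, so the spread that the p-values rest on is the one between these samples and may be technical. In bulk RNA, fewer cells of a type and less RNA per cell cannot be told apart.

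Total counts were 15814583 to 21457503 in the CCNE1 libraries and 14945893 to 16302525 in the shTMLHE 1 libraries, yet 18411 to 18698 genes had a count in the former and 21429 to 21962 in the latter. The controls had 18769 to 19093 genes with a count and the shTMLHE 2 libraries 22256 to 23463. The first principal component separated the groups and held 66.1% of the variance over the 6 libraries. The second, with 12.3%, spread the CCNE1 libraries, with replicates 1 and 2 at its ends. The line's markers PAX8, KRT7, KRT8, KRT18 and MSLN were present, while MUC16 was at 0 and WT1 and ESR1 were near 0 in all 6 libraries. PTPRC, CD3E, CD3D, MS4A1 and FCGR3A, markers of leukocytes, and DCN, a marker of fibroblasts, were at 0, but other markers of these cells had counts. The 10 leukocyte markers held on average 0.000178% of counts with CCNE1 and 0.000169% with shTMLHE 1. The 7 fibroblast markers, COL1A1 among them, held 0.0531% and 0.177%.

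Levels below are CPM, counts divided by the library's effective size after scaling by the trimmed mean of M-values (TMM). The TMM factors were 0.847 to 0.853 with CCNE1 and 1.107 to 1.121 with shTMLHE 1. They were 0.86 to 0.864 in the controls and 1.221 to 1.228 with shTMLHE 2. What set the libraries with a hairpin apart in these factors was not tested. Fold changes are shTMLHE 1 over CCNE1 with a standard error (SE). The SE was derived from the test, as the size of the log2 fold change divided by the square root of the F statistic. Adjusted p-values come from edgeR's quasi-likelihood test with Benjamini-Hochberg adjustment over all tested genes. A gene is said to have risen or fallen where its adjusted p was under 0.05. Of the tested genes, 9338 changed, which is 60.7%. The rises numbered 4673 (30.4%) and the falls 4665 (30.3%), and the median log2 fold change of all tested genes was 0.03. With scaling by total counts that median became 0.43 and 75.9% of the calls were rises, against 50% with TMM. Changes of at least 2-fold were seen for 2969 genes, or 19.3%, with 1595 higher (10.4%) and 1374 lower (8.93%), and of at least 4-fold for 362 higher (2.35%) and 155 lower (1.01%). CPM of the groups did not overlap for 9831 genes, or 63.9%. Each count of changed members below is to be read against these shares.

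TMLHE itself (chrX:155490115-155669944, minus strand, GRCh38) had 13.2, 15.4 and 18.6 CPM in the CCNE1 libraries and 0.712, 0.885 and 1.27 CPM in the shTMLHE 1 libraries. The groups lay far apart, and the hairpin libraries still held 13, 16 and 21 TMLHE counts each. The log2 fold change was -4.04 ± 0.24 (SE; edgeR adjusted p = 5.99e-18), a 16.5-fold lower mean CPM. In the shTMLHE 2 libraries TMLHE was at 0.247, 0.471 and 0.729 CPM, and the direct contrast of the hairpins was 1.03 higher on the log2 scale with shTMLHE 1 (edgeR adjusted p = 0.0154).

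Among the 12 tested genes of carnitine synthesis and transport, TMLHE included, 4 rose and 6 fell, with a median log2 fold change of -0.28 (6 rose and 5 fell with scaling by total counts). Of the synthesis enzymes, ALDH9A1, which oxidises trimethylaminobutyraldehyde, rose by 0.59 ± 0.05. SHMT1 had -0.20 ± 0.04 and passed the test, but stood at 0.19 with scaling by total counts. BBOX1, the last enzyme of the pathway, had too few counts to be tested.

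Genes of carnitine uptake and the acylcarnitine shuttle moved in both directions. SLC25A20, the carnitine-acylcarnitine translocase of the inner membrane, had 8.59, 13.4 and 10.5 CPM with CCNE1 and 3.23, 1.71 and 3.69 CPM with shTMLHE 1. These groups did not overlap, and the log2 fold change was -1.92 ± 0.20. SLC25A20 was also lower than with shTMLHE 2, by a log2 difference of -1.60 (edgeR adjusted p = 8.01e-09). SLC22A5, the high-affinity carnitine importer, fell by 1.10 ± 0.27 on the log2 scale, and CRAT, carnitine acetyltransferase, fell by 0.89 ± 0.07. CPT1C, a brain-type carnitine palmitoyltransferase, fell by 1.91 ± 0.18. Against these, CPT1A, the form that governs entry of long-chain fatty acids, rose by 1.03 ± 0.23, and CROT, the peroxisomal octanoyltransferase, rose by 1.36 ± 0.15. SLC22A4 had 1.18 ± 0.49 and lost its call without CCNE1 replicate 1 or 3 or without shTMLHE 1 replicate 1 or 3, with adjusted p from 0.0732 to 0.137 in those edgeR fits. CPT2 and SLC25A29 did not pass.

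MT1E, MT1M and MT1X had the largest log2 fold changes among rises of genes whose log2 CPM averaged 1 or more. All 5 tested metallothionein genes rose, by a median of 4.30 on the log2 scale, and all 5 lie in the metallothionein cluster of chromosome 16. MT1E (chr16:56625475-56627112) had 11.1, 11.4 and 7.35 CPM with CCNE1 and 403, 388 and 377 CPM with shTMLHE 1, 39.1 times the mean. Its log2 fold change was 5.29 ± 0.10 (edgeR adjusted p = 3.3e-18). In the control libraries MT1E was at 4.64 to 7.39 CPM, so the shTMLHE 1 libraries stood above both groups without a hairpin.

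MT2A (chr16:56608199-56609497), the most abundant member, rose from 398, 424 and 415 CPM to 1263, 1267 and 1377 CPM, a log2 fold change of 1.66 ± 0.04. MT1X had 1.94, 1.38 and 1.08 CPM with CCNE1 and 27.8, 27.8 and 29.8 CPM with shTMLHE 1 (log2 fold change 4.30 ± 0.19), and MT1F rose by 2.54 ± 0.32. MT1M had only 10, 3 and 2 counts in the CCNE1 libraries against 204, 245 and 137, so its log2 fold change of 5.07 ± 0.41 rests on few CCNE1 counts and was 6.16 without CCNE1 replicate 1. Members of this family are near-identical copies, so the split of counts among them depends on how reads with several matches were counted, which is not given in the sources used here.

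With shTMLHE 2 the same 5 genes had log2 fold changes over CCNE1 of 4.90 for MT1E, 4.09 for MT1M, 3.22 for MT1X, 1.35 for MT1F and 0.67 for MT2A, from the same CCNE1 libraries. All 5 were higher with shTMLHE 1 in the direct contrast, by 0.39 for MT1E (edgeR adjusted p = 6.43e-05) to 1.19 for MT1F (edgeR adjusted p = 0.00031).

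Zinc transporters and the zinc sensor moved less and both ways: of 19 tested, 8 rose and 6 fell (11 and 2 with scaling by total counts). SLC30A1, the plasma membrane exporter of zinc and itself a target of MTF1, had 0.448, 1.43 and 1.71 CPM with CCNE1 and 9.86, 9.13 and 7.99 CPM with shTMLHE 1. Its log2 fold change was 2.86 ± 0.27, and here shTMLHE 2 was the higher hairpin, by 0.96 in the direct contrast (log2 difference -0.96 for shTMLHE 1, edgeR adjusted p = 9.73e-05). MTF1 rose by 1.08 ± 0.12. Of the importers, SLC39A10 fell by 1.85 ± 0.09, from 53, 50.9 and 54.9 CPM to 15.1, 14.7 and 14.1 CPM, and SLC39A4 fell by 1.33 ± 0.06, while SLC39A6 rose by 0.78 ± 0.13. SLC39A7 passed as higher at 0.12 ± 0.05 (edgeR adjusted p = 0.0465), but lost its call with the replicate block and without CCNE1 replicate 1 or 3 or shTMLHE 1 replicate 3. SLC30A7, which loads the secretory pathway, rose by 1.06 ± 0.09, but stood at 0.25 once the trend of counts on GC content and transcript length, the composition trend, had been taken out of each library.

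The promoters of MT1X, MT2A and SLC30A1 are shown with their matches to the motif that MTF1 is known to bind. The windows are the 250 bases before the transcript start in RefSeq's tables for GRCh38.p14, 5′ to 3′ on the gene's strand, and capitals mark each match to the core of the metal response element, searched as TGCACNC and TGCGCNC on both strands. MT1X is from chr16:56682220-56682469, MT2A from chr16:56608334-56608583 and SLC30A1 from chr1:211579162-211579411 on the minus strand.
MT1X: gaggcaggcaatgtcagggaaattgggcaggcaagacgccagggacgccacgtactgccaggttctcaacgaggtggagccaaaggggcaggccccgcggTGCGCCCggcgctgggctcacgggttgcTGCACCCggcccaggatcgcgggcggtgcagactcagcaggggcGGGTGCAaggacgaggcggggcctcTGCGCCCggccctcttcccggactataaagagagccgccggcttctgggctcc
MT2A: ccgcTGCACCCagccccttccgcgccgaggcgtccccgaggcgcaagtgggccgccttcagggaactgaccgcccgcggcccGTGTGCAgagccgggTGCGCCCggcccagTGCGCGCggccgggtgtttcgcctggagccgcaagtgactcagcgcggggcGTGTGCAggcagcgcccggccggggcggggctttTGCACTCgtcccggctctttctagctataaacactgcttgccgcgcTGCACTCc
SLC30A1: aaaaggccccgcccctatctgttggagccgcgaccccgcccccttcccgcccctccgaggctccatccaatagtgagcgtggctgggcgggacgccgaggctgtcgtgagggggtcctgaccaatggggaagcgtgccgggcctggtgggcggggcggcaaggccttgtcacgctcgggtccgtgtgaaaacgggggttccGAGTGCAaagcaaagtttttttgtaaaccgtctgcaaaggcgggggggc
MT2A held 7 matches, MT1X 4 and SLC30A1 1, and the marked matches do not overlap one another. Of 27305 promoters of the same length, 24.7% held at least 1 match and 0.366% at least 4. Among promoters of tested genes those shares were 33.4% and 0.517%. The windows of MTF1, SLC30A7 and SLC39A10 held 0 matches, while those of SLC30A3, which did not pass the test (-0.08 ± 0.18), held 2 and 1. SLC30A4, SLC30A6, SLC39A3 and SLC39A6 held 1 match each, as SLC30A1 did. Of these, SLC39A6 rose and SLC39A3 fell, the latter without a call when scaled by total counts. Among genes that were not tested, MT1H held 8 matches and MT1B, MT4 and SLC30A2 held 3 each. A match is a description of the letters and not a measured site. MT1E, MT1M and MT1F were named only.

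The hairpins differed in cyclin E1 and in the p53 target CDKN1A. CCNE1 had 1027, 1015 and 963 CPM in the CCNE1 libraries and 1317, 1271 and 1219 CPM with shTMLHE 1, so the libraries did not overlap and the transcript was 0.34 ± 0.03 higher on the log2 scale. CDKN1A, the p53-induced inhibitor of cyclin-dependent kinases, was at 73.9, 80.6 and 74.7 CPM in the controls, 34, 35.1 and 36.1 CPM with CCNE1 and 75.7, 73.2 and 81.1 CPM with shTMLHE 1. The shTMLHE 1 libraries overlapped the controls and stood at 2.18 times the CCNE1 mean (log2 fold change 1.13 ± 0.07; edgeR adjusted p = 5.09e-17). The shTMLHE 2 libraries held 19.2, 21.9 and 18.3 CPM of CDKN1A, below all CCNE1 libraries, and the difference between the hairpins was 1.95 on the log2 scale (edgeR adjusted p = 6.74e-24).

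TP53INP1, a p53 target linked to autophagy and cell death, had 1.19, 0.22 and 0.127 CPM with CCNE1 and 4.71, 3.48 and 4.18 CPM with shTMLHE 1. The groups did not overlap, the log2 fold change was 3.09 ± 0.47, and it was 4.49 without CCNE1 replicate 1, the highest of its group. Across the 29 tested p53 targets, 12 rose and 7 fell with a median of 0.29 (18 and 3 with scaling by total counts). TNFRSF10B, a death receptor, rose by 1.11 ± 0.05 and MDM2, the ubiquitin ligase that p53 induces against itself, by 1.25 ± 0.13. FDXR, a mitochondrial reductase, fell by 0.98 ± 0.06 and BAX, which opens the outer mitochondrial membrane, fell by 0.89 ± 0.06. The targets moved in both directions.

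**Figure D1:**
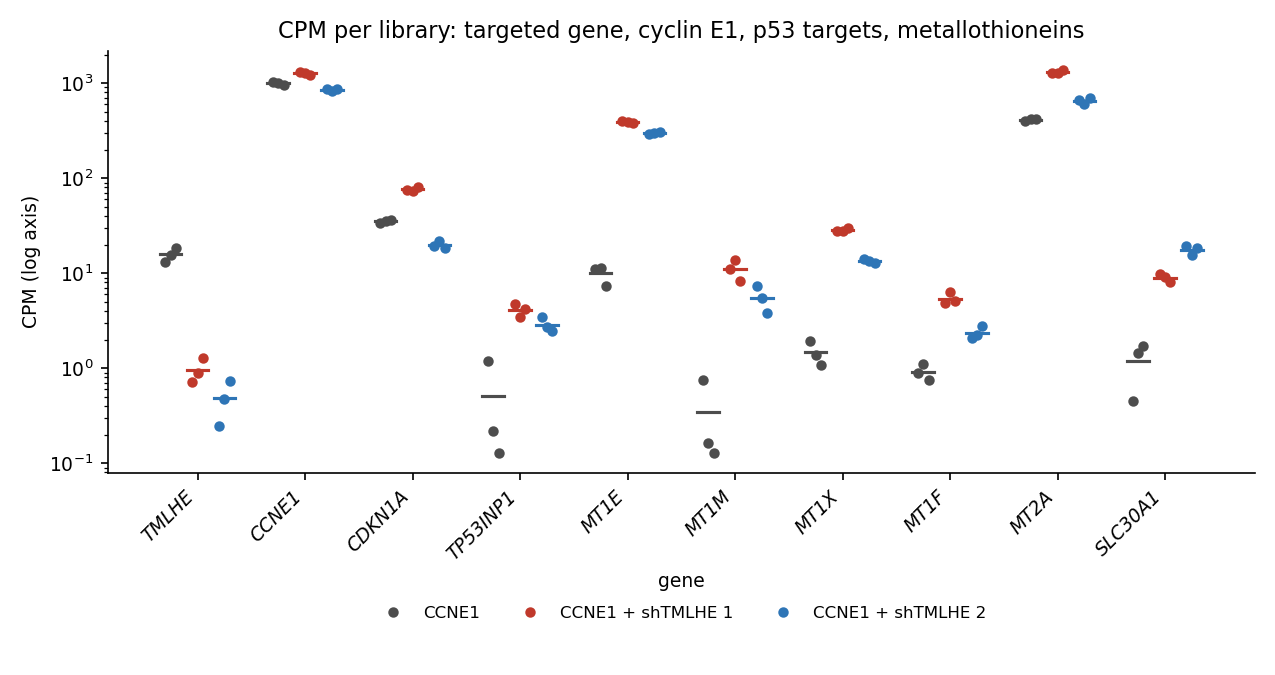
CPM of single libraries on a log axis for the targeted gene, cyclin E1, the p53 targets CDKN1A and TP53INP1, the metallothioneins and SLC30A1 in the CCNE1, shTMLHE 1 and shTMLHE 2 groups; points are libraries and short lines the means of 3. TMLHE is low and the metallothioneins are high with both hairpins, whereas CDKN1A is above the CCNE1 libraries with shTMLHE 1 and below them with shTMLHE 2.

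Outside the metallothioneins, the largest rises of the comparison included ANGPTL4 and C3. ANGPTL4, a secreted inhibitor of lipoprotein lipase, went from 0.448, 1.32 and 0.634 CPM to 7.12, 6.86 and 6.96 CPM, and C3, the central complement protein, from 0.822, 2.15 and 0.697 CPM to 10.1, 10.1 and 8.35 CPM. In both genes CCNE1 replicate 2 was the highest of its group, and without it the log2 fold changes of 3.06 ± 0.37 and 2.91 ± 0.30 became 3.66 and 3.64. TNC, the matrix protein tenascin C, rose from 8.59, 9.41 and 8.43 CPM to 53.2, 55.2 and 54.6 CPM (log2 fold change 2.62 ± 0.10). SH3GL2, an endophilin of synaptic vesicles, rose by 2.89 ± 0.32, PDZD2 by 2.81 ± 0.27 and FAM3C by 2.53 ± 0.27. ZNF267 rose by 2.62 ± 0.33, and by 3.56 without CCNE1 replicate 2. ANKRD26 rose by 2.53 ± 0.33, and by 3.38 without CCNE1 replicate 3. TTN rose by 2.57 ± 0.33 from about 1 CPM, but by 1.49 with the composition trend taken out, and on log2(FPKM + 1) it had 0.05 and lost its call (limma adjusted p = 0.181). HERC2P2, a transcribed relative of HERC2 whose reads may be shared with it, rose by 2.51 ± 0.18.

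The deepest falls after TMLHE were in genes of varied roles. MAPK3, which encodes the kinase ERK1, had 139, 144 and 129 CPM with CCNE1 and 11.8, 11.8 and 13.7 CPM with shTMLHE 1. That is 11.1 times lower (log2 fold change -3.47 ± 0.07; edgeR adjusted p = 4.25e-33), and MAPK3 was also lower than with shTMLHE 2 by 1.95 (log2 difference -1.95, edgeR adjusted p = 2.69e-24). FGFRL1, a receptor of fibroblast growth factors without a kinase domain, went from 97.2, 98.5 and 95.9 CPM to 8.55, 11 and 9.93 CPM. PEMT, which methylates phosphatidylethanolamine to make phosphatidylcholine, went from 97.2, 106 and 124 CPM to 11.8, 13.7 and 13.5 CPM. RPP25L fell by 3.38 ± 0.11, TGFB1I1, a focal adhesion coactivator, by 2.86 ± 0.06, VAMP3, a vesicle fusion protein, by 2.84 ± 0.09 and FUZ, a planar polarity effector needed for cilia, by 2.74 ± 0.15. TRIM14 fell by 2.73 ± 0.12, and DMBT1 had -2.66 ± 0.33, NRXN2 -2.64 ± 0.24 and the homeobox gene HOXB7 -2.63 ± 0.14. EEF1AKMT4 fell by 3.29 ± 0.28, but 46.8% of its exonic bases overlap another gene, so its count is uncertain.

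Among abundant transcripts the rises included DST, a cytoskeletal linker (log2 fold change 1.79 ± 0.09, but 0.98 with the composition trend taken out), SPARC, MT2A, COL4A1, PLEKHB2 (1.59 ± 0.04), PODXL (1.40 ± 0.04), COL1A1 and the chromatin protein DEK (1.33 ± 0.05). The falls were led by RPS25 and SNX17, a sorting nexin that recycles receptors, which went from 363, 363 and 369 CPM to 62, 64.8 and 71.5 CPM. TECR, the last enzyme of very long-chain fatty acid elongation, fell by 2.16 ± 0.04. UQCRQ, a subunit of respiratory complex III, fell by 2.06 ± 0.05, with 20.8% of its exonic bases overlapping another gene. HCFC1R1 fell by 2.04 ± 0.04, IFRD2 by 2.00 ± 0.04, NME4 by 1.93 ± 0.04 and CPSF1, a subunit of the polyadenylation complex, by 1.92 ± 0.04. For HCFC1R1 the log2 fold change over CCNE1 was -4.19 with shTMLHE 2, and the direct contrast was 2.15 (edgeR adjusted p = 5.49e-30).

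The hairpins differed from each other for 9277 tested genes, or 60.3%, in the direct contrast of shTMLHE 1 with shTMLHE 2. Against the same CCNE1 libraries shTMLHE 2 had 73.0% of genes changed, 36.8% higher and 36.2% lower. Some genes of shTMLHE 1 stood below both the CCNE1 and the shTMLHE 2 libraries. Those given next, from THAP12 to RASSF3, were picked for that, so their differences follow from the choice. THAP12, a zinc finger protein also known as a regulator of the kinase PKR, had 29.3, 33.6 and 33.3 CPM with CCNE1, 4.88, 4.31 and 6.72 CPM with shTMLHE 1 and 66.8, 62 and 68.2 CPM with shTMLHE 2. The order was the same in every library, and the hairpins differed by -3.64 on the log2 scale (edgeR adjusted p = 1e-26). RPS25, a protein of the small ribosomal subunit, had 532, 551 and 485 CPM with CCNE1, 61.6, 58.3 and 65.5 CPM with shTMLHE 1 and 368, 351 and 350.0 CPM with shTMLHE 2. Its log2 fold change of -3.08 ± 0.05 was the lowest among ribosomal protein genes, and it was 2.53 below shTMLHE 2 (log2 difference -2.53, edgeR adjusted p = 7.57e-33). Another gene overlaps 20.8% of its exonic bases.

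IDH1, the cytosolic isocitrate dehydrogenase that makes alpha-ketoglutarate and NADPH, had 29.7, 30.1 and 32.5 CPM with CCNE1, 6.63, 5.2 and 5.63 CPM with shTMLHE 1 and 33.6, 33.4 and 33.7 CPM with shTMLHE 2. Only the shTMLHE 1 libraries were low, at 5.28 times under the CCNE1 mean (log2 fold change -2.40 ± 0.11; edgeR adjusted p = 3.2e-21), and the difference from shTMLHE 2 was -2.52 (edgeR adjusted p = 4.73e-22). NRAS, a small GTPase upstream of ERK, had 105, 108 and 104 CPM with CCNE1, 22.8, 22.2 and 19.5 CPM with shTMLHE 1 and 150.4, 154 and 149.8 CPM with shTMLHE 2. Its log2 difference between the hairpins was -2.81 (edgeR adjusted p = 3.07e-21). LPAR3, a lysophosphatidic acid receptor, and RASSF3, a RAS association domain protein, followed the same order, with log2 fold changes over CCNE1 of -2.24 ± 0.15 and -2.22 ± 0.17 and differences from shTMLHE 2 of -2.55 and -3.05.

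C3, ANGPTL4, CES4A, FOXL1, CTNND2 and GFPT2 stood above both other groups and were picked for that. GFPT2, which feeds fructose-6-phosphate into hexosamine synthesis, had 15.1, 18 and 15 CPM with CCNE1, 67.3, 66.4 and 67 CPM with shTMLHE 1 and 18.2, 17 and 17.4 CPM with shTMLHE 2. The shTMLHE 1 libraries were above all 6 others, with a log2 fold change of 2.06 ± 0.09 over CCNE1 and a difference from shTMLHE 2 of 1.93 (edgeR adjusted p = 9.36e-21). C3 differed between the hairpins by 2.87 and ANGPTL4 by 2.09. CES4A, a carboxylesterase, rose by 2.01 ± 0.14 and was 2.23 above shTMLHE 2. FOXL1, a forkhead factor, rose by 1.94 ± 0.24 and CTNND2, delta-catenin, by 2.28 ± 0.28, and each was 1.93 above shTMLHE 2. The sequences of the hairpins were not used here, and whether the differences follow from them was not tested.

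**Figure D2:**
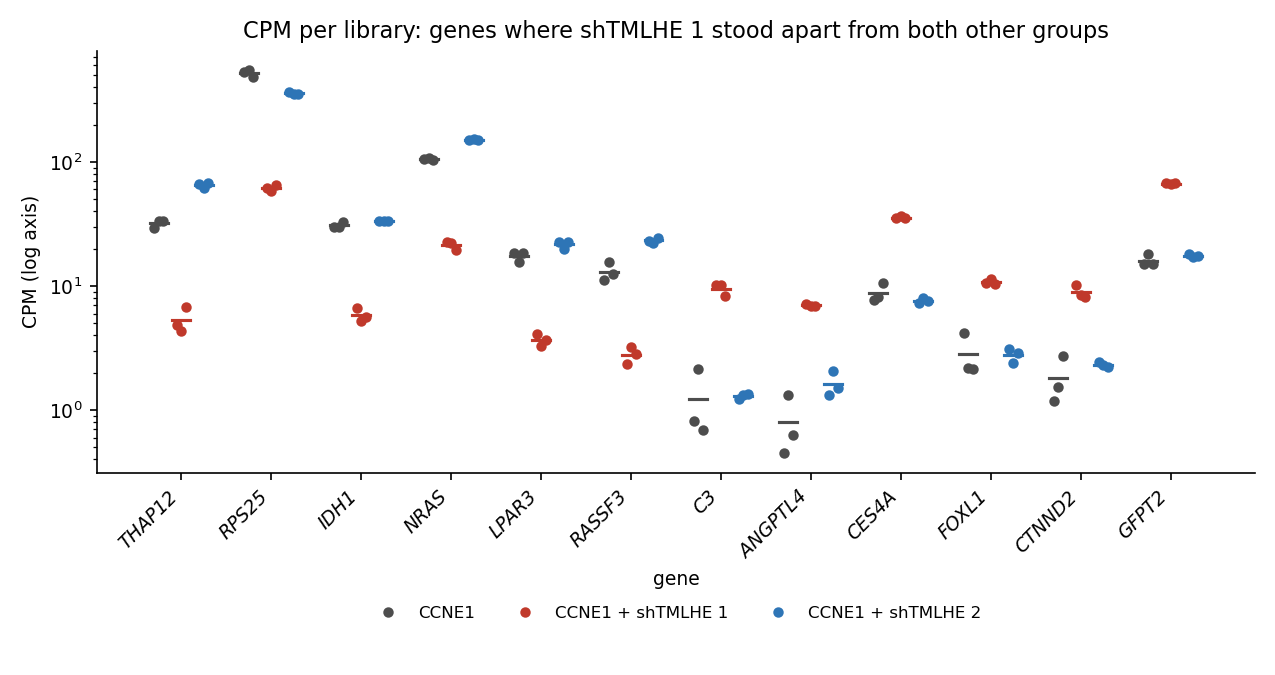
CPM of single libraries on a log axis for 12 genes whose shTMLHE 1 libraries lay on one side of both the CCNE1 and the shTMLHE 2 groups; points are libraries and short lines the means of 3. In the first 6 genes, from THAP12 to RASSF3, the shTMLHE 1 libraries are the lowest, and in the last 6, from C3 to GFPT2, they are the highest.

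Genes of the cytosolic ribosome fell almost without exception. Of 77 tested ribosomal protein genes, 75 fell and none rose, with a median of -1.31 (73 fell and 3 rose with scaling by total counts). RPSA had 8339, 8391 and 8445 CPM with CCNE1 and 2354, 2494 and 2361 CPM with shTMLHE 1, and RPS2, with 25.6% of its exonic bases overlapped, fell by 1.76 ± 0.03. The large subunit had a median of -1.29 and the small subunit of -1.34. Over the same CCNE1 libraries, shTMLHE 2 had a median of -1.38 for the list, and the direct contrast of the hairpins had a median of 0.05. Many pseudogenes are near copies of these genes, so counts may be shared between them. With the composition trend taken out the median of the list was -1.02, with 75 falls and 1 rise. Its median transcript length of 1857 bases and GC content of 48.1% compare with 3419 bases and 48.9% over all tested genes.

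The nuclear and the mitochondrial genomes went apart in the respiratory chain. Of 49 tested nuclear genes, 47 fell and none rose, with a median of -0.91 (37 fell and 2 rose with scaling by total counts). NDUFS8, a complex I subunit, fell from 563, 503 and 514 CPM to 166, 166 and 176 CPM, UQCRC1 of complex III fell by 1.19 ± 0.03, and CYC1, cytochrome c1, by 1.29 ± 0.03. The nuclear genes had a median of -1.18 with shTMLHE 2 over the same CCNE1 libraries, and of 0.21 in the direct contrast of the hairpins. Of the 13 mRNAs encoded in mitochondrial DNA, 10 rose and 3 fell, with a median of 0.77 (12 rose and 1 fell with scaling by total counts or with the composition trend taken out).

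MT-ND5 rose from 828, 822 and 808 CPM to 1884, 1780.1 and 1929 CPM, MT-ND4 by 0.85 ± 0.03, MT-CYB by 0.72 ± 0.03 and MT-CO1 by 0.79 ± 0.03. MT-ND3 went against them, from 3984, 3906 and 3547 CPM to 2162, 2179.5 and 2492 CPM. MT-CO2 (-0.28 ± 0.03) and MT-CO3 (-0.26 ± 0.03) passed as lower, but stood at 0.11 and 0.14 with scaling by total counts and at 0.08 and 0.11 with the composition trend taken out. All 13 mRNAs were higher with shTMLHE 1 than with shTMLHE 2 in the direct contrast, by 0.32 for MT-ND5 to 1.31 for MT-CO1. MT-CO1 was above the CCNE1 libraries with shTMLHE 1 and below them with shTMLHE 2 (log2 fold change -0.52). Of 20 tested mitochondrial rRNA and tRNA genes, 15 rose, and this class took 0.514% of counts with shTMLHE 1 against 0.300% with CCNE1.

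**Figure D3:**
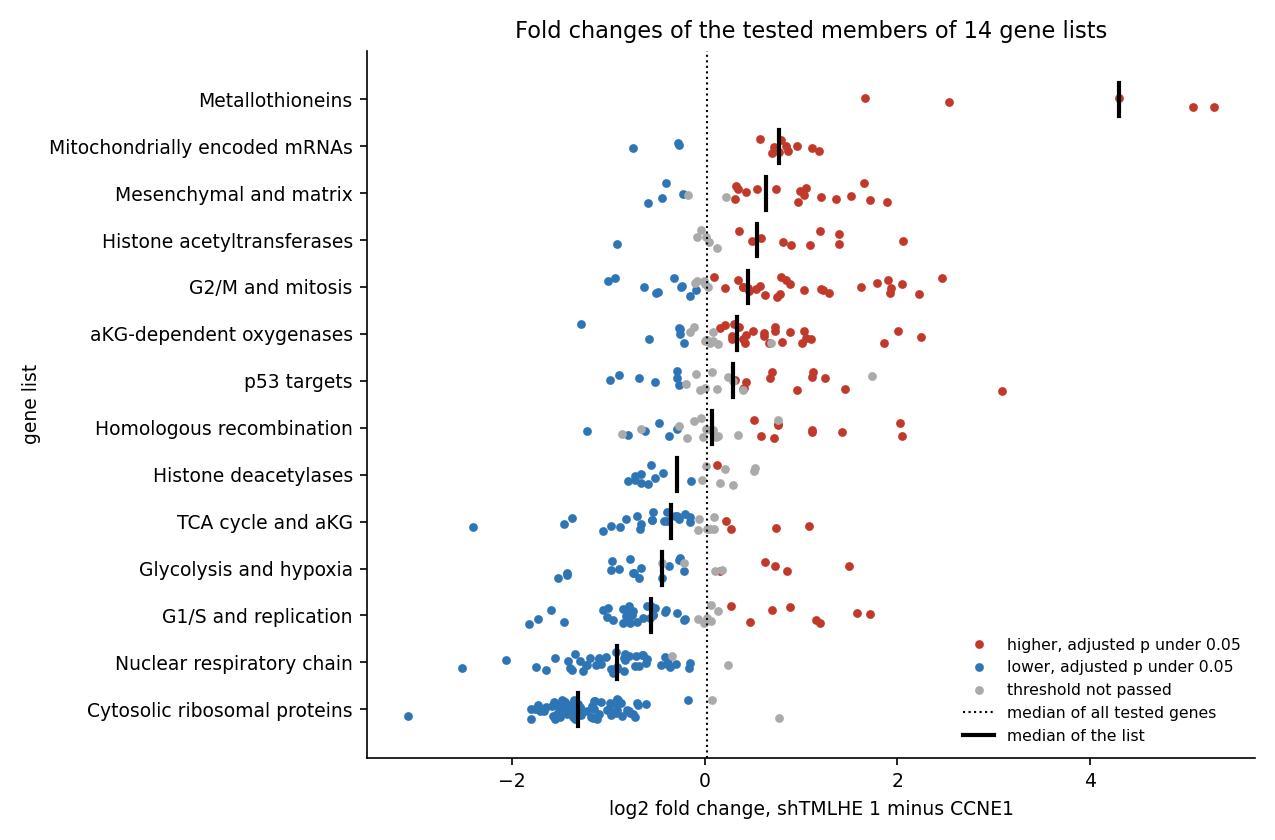
Log2 fold change of shTMLHE 1 over CCNE1 for each tested member of 14 gene lists, TMLHE not among them; red points passed as higher, blue as lower, grey did not pass, black bars are list medians and the dotted line is the median of all tested genes, 0.03. Ribosomal protein genes lie almost wholly on the left with a median of -1.31 and metallothioneins on the right with a median of 4.30.

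Genes of S phase entry and of mitosis moved in opposite directions. Of 45 tested G1/S and replication genes, 31 fell and 8 rose, with a median of -0.56 (24 and 16, median -0.17, with scaling by total counts). CDT1, which loads the replicative helicase on origins, fell from 537, 529 and 540.3 CPM to 148, 147 and 159.7 CPM. The helicase subunits fell, from MCM5 at -0.95 ± 0.04 to MCM4 at -0.40 ± 0.04, with MCM2, MCM3, MCM6 and MCM7 between -0.85 and -0.75; MCM4 lost its call with scaling by total counts, at -0.01. Another gene overlaps 23.6% of the exonic bases of MCM2. DUT, which keeps uracil out of DNA, fell by 1.59 ± 0.06 and E2F1, the S phase transcription factor, by 1.05 ± 0.05.

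Members of the D-type cyclins and of their kinases moved in opposite directions. CCND1 rose from 245, 266 and 251 CPM to 583, 599 and 564 CPM and CDK6 from 10.2, 10.6 and 14.1 CPM to 41, 37.3 and 36.7 CPM. CCND3 fell by 1.46 ± 0.06 and CDK4 from 484, 484 and 480.2 CPM to 144, 147 and 145 CPM, though another gene overlaps 43.2% of the exonic bases of CDK4. RB1, the pocket protein these kinases phosphorylate, rose by 1.58 ± 0.38 from about 1 CPM, and by 2.45 without CCNE1 replicate 2. CCND1 was 0.99 higher than with shTMLHE 2 (edgeR adjusted p = 4.96e-24), while CDK6 was lower by 1.29 (log2 difference -1.29, edgeR adjusted p = 2.86e-16).

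Among the 42 tested genes of G2/M and mitosis there were 27 rises and 10 falls, with a median of 0.46 (35 and 4 with scaling by total counts). CDK1, the mitotic kinase, rose from 18.8, 22.4 and 22.2 CPM to 83.5, 75.7 and 83.1 CPM. CENPE, a kinetochore motor, rose from 6.57, 5.78 and 4.82 CPM to 33.9, 31 and 29.2 CPM, TTK, the spindle checkpoint kinase, by 2.22 ± 0.16 and ASPM, a spindle pole protein, by 1.90 ± 0.08. SMC4, a condensin subunit, rose by 1.62 ± 0.06 with 25.6% of its exonic bases overlapped. PLK1, which drives mitotic entry, fell by 1.00 ± 0.04. The risen members did not include every mitotic kinase. The list's median GC content was 42.6%, lower than that of the G1/S list at 49.1%, and with the composition trend taken out 28 rose and 7 fell with a median of 0.30.

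Homologous recombination, the repair of double-strand breaks from the sister chromatid, showed no common direction. Of 30 tested core genes, 10 rose, 6 fell and 14 did not pass, with a median of 0.08. These were 20 and 3 with scaling by total counts, but 8 rose and 11 fell, with a median of -0.16, once the composition trend was taken out. BRCA1, which directs repair to resected ends, rose from 38.1, 35.2 and 38.5 CPM to 103, 99.2 and 97.6 CPM, a log2 fold change of 1.43 ± 0.07 (edgeR adjusted p = 9.22e-21). BRCA2, a mediator of strand exchange, rose from 2.17, 4.51 and 3.04 CPM to 14.1, 14.7 and 11.7 CPM (log2 fold change 2.03 ± 0.19). Both were also higher than CCNE1 with the composition trend taken out, at 1.00 and 1.08. With shTMLHE 2, BRCA1 was at 87.1, 83.4 and 89.6 CPM and BRCA2 at 17.6, 16.8 and 18.5 CPM.

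ATM, the break-sensing kinase, rose by 1.11 ± 0.09 and NBN of the MRN complex by 1.12 ± 0.12, and these were 0.33 and 0.56 with the composition trend taken out. XRCC2 rose by 0.76 ± 0.15, PALB2, the bridge between BRCA1 and BRCA2, by 0.76 ± 0.19 and RBBP8, which starts resection, by 0.72 ± 0.14. RAD54B rose by 2.05 ± 0.49 from 2, 8 and 13 counts in the CCNE1 libraries, and by 2.66 without CCNE1 replicate 3, with 59.1% of its exonic bases overlapped. BRIP1 (0.51 ± 0.13) and BARD1 (0.59 ± 0.19) passed, but stood at -0.12 and 0.03 with the composition trend taken out.

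RPA3, a subunit of the single-strand binding complex, fell by 1.22 ± 0.09, and RPA2 by 0.47 ± 0.04, the latter without a call when scaled by total counts. CHEK2, a checkpoint kinase, fell by 0.62 ± 0.10. XRCC3 fell by 0.79 ± 0.09, with 76.7% of its exonic bases overlapped by another gene. UIMC1 (-0.37 ± 0.11) and RAD51D (-0.29 ± 0.11) passed, but both were above 0 with scaling by total counts, at 0.03 and 0.10. Among those that did not pass, RAD51C had -0.02 ± 0.11 and MRE11 0.02 ± 0.09, the latter at -0.59 with the composition trend taken out. Of the 30 genes, 15 were lower with shTMLHE 1 than with shTMLHE 2 and 7 were higher in the direct contrast.

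The enzymes that write and erase histone acetylation also moved apart. Of 16 tested histone acetyltransferases, 10 rose and 1 fell, with a median of 0.54 (15 rose and 1 fell with scaling by total counts). KAT2B had 3.51, 2.97 and 3.99 CPM with CCNE1 and 13.8, 14.9 and 14.9 CPM with shTMLHE 1. NCOA3, a steroid receptor coactivator, rose by 1.40 ± 0.07, HAT1, which acetylates new histone H4, by 1.40 ± 0.11 and CLOCK by 1.20 ± 0.10. The paralogous coactivators CREBBP and EP300 rose by 0.90 ± 0.08 and 0.59 ± 0.06. KAT8, which acetylates histone H4 at lysine residues of active genes, fell by 0.91 ± 0.06. Acetyltransferase transcripts were long, with a median of 7564 bases, and their median was 0.40 with the composition trend taken out.

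Of 18 tested histone deacetylases, sirtuins included, 10 fell and 1 rose, with a median of -0.28, but 7 rose and 6 fell with scaling by total counts. HDAC3, the catalytic subunit of the NCoR complex, fell from 104, 100.4 and 111 CPM to 57.5, 61.5 and 63.2 CPM. HDAC5 fell by 0.72 ± 0.05 and HDAC1 by 0.59 ± 0.04. SIRT6 fell by 0.72 ± 0.07, but its log2 fold change was -0.07 and had no call with the composition trend taken out. Histone acetylation itself was not measured in these libraries.

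Enzymes that, like TMLHE, use alpha-ketoglutarate and oxygen rose more often than they fell, with 24 rises and 6 falls among 40 tested and a median of 0.33 (35 and 1 with scaling by total counts). With the composition trend taken out the counts were 18 and 7 and the median was 0.11. TET3, which oxidises 5-methylcytosine, rose from 7.92, 11.7 and 8.93 CPM to 37.7, 38.2 and 40.4 CPM and was 1.37 above shTMLHE 2 (edgeR adjusted p = 1.32e-13). TET1 rose by 2.25 ± 0.48 from under 1 CPM. ASPH, an aspartyl hydroxylase, rose by 1.03 ± 0.04 and P4HA2, a collagen prolyl hydroxylase, by 1.05 ± 0.09. PLOD2, which hydroxylates collagen lysines, rose by 0.80 ± 0.07 but had no call, at 0.11, with the composition trend taken out.

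Central carbon metabolism moved mostly downward with TMM scaling. Of 32 tested TCA cycle and alpha-ketoglutarate genes, 22 fell and 4 rose, with a median of -0.35, but with scaling by total counts 11 fell and 13 rose. CS, citrate synthase, fell from 391, 401 and 404 CPM to 146, 149 and 139 CPM and MDH2, malate dehydrogenase, by 1.05 ± 0.04. SLC25A11, which exchanges alpha-ketoglutarate for malate, fell by 0.97 ± 0.05. IDH2, the mitochondrial counterpart of IDH1, fell by 0.55 ± 0.04 with shTMLHE 1 and had a log2 fold change of -2.29 with shTMLHE 2, so the hairpins differed by 1.73 (edgeR adjusted p = 4.09e-29) in the sense opposite to IDH1.

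Of 17 tested genes of acetyl-CoA supply, 10 fell and 2 rose, with 2 and 10 when scaled by total counts. SLC25A1, which exports citrate from mitochondria, fell from 472, 477 and 490.2 CPM to 146, 157 and 159.9 CPM, and ACSS2, which makes acetyl-CoA from acetate, fell by 0.79 ± 0.07. Of 25 tested genes of fatty acid beta-oxidation, 12 fell and 2 rose (6 and 10 with scaling by total counts). ECI1 fell by 1.10 ± 0.04, HADH by 1.21 ± 0.06 and HADHA, a subunit of the trifunctional protein, by 0.96 ± 0.04. Of 25 tested glycolysis and hypoxia genes, 16 fell and 5 rose with a median of -0.44 (11 and 10 with scaling by total counts). GAPDH, which has many pseudogene copies, fell from 13217, 13452 and 13469 CPM to 5042, 4992 and 4911 CPM, and LDHA, lactate dehydrogenase, fell by 0.96 ± 0.03. TPI1 fell by 0.97 ± 0.03 and PKM by 0.74 ± 0.02.

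Cholesterol synthesis split, with 8 rises and 9 falls among 23 tested genes (16 and 7 with scaling by total counts). HMGCS1 rose from 24.6, 25.6 and 26.3 CPM to 61.9, 61.3 and 64.3 CPM. It was lower than with shTMLHE 2, by a log2 difference of -1.32 (edgeR adjusted p = 1.26e-22). EBP, a sterol isomerase, fell by 0.85 ± 0.04.

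Stress pathways gave no shared direction. In the unfolded protein response 12 of 20 tested genes rose and 4 fell (16 and 2 with scaling by total counts), with HYOU1, a chaperone of the endoplasmic reticulum, at 0.83 ± 0.04. HSP90B1 rose by 0.57 ± 0.04 and CALR by 0.34 ± 0.03. SEL1L, which holds the ubiquitin ligase HRD1, went from 24.5, 28.7 and 24 CPM to 10.4, 10.1 and 9.68 CPM, whereas with shTMLHE 2 it averaged 44.3 CPM. In the ATF4 response 13 of 27 rose and 7 fell (23 and 2 with scaling by total counts). STC2 rose by 0.83 ± 0.07, SLC7A11, the cystine importer, by 1.00 ± 0.08 but with no call, at 0.07, when the composition trend was taken out, and PHGDH, the entry to serine synthesis, fell by 0.74 ± 0.03 and TRIB3 by 0.86 ± 0.07.

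Of 20 tested NRF2 targets, 11 fell and 5 rose (6 and 5 with scaling by total counts), among them FTL, ferritin light chain, at -1.23 ± 0.03, TKT at -0.84 ± 0.03 and NQO1 at -0.94 ± 0.05. FTH1 fell by 0.80 ± 0.04, with 62.4% of its exonic bases overlapped. In the heat shock list 9 of 14 fell and 3 rose, but 3 fell and 7 rose with scaling by total counts. HSPA8 fell by 0.57 ± 0.03, and HSP90AA1 fell by 0.47 ± 0.03 and was 1.64 below shTMLHE 2 (log2 difference -1.64, edgeR adjusted p = 1.07e-32). Of 24 proteasome genes 15 fell and 5 rose (8 and 11 with scaling by total counts), with PSMB6, a catalytic subunit, at -1.77 ± 0.05, PSMB2 at -1.10 ± 0.05 and PSMB5 at -1.04 ± 0.04. Of 19 selenoprotein genes 11 fell and 5 rose (10 and 8 with scaling by total counts), with a median of -0.67, or -0.24 with the composition trend taken out. GPX3 fell by 1.72 ± 0.06 on the log2 scale, GPX1 by 1.10 ± 0.03 and GPX4, which clears lipid peroxides, by 0.94 ± 0.03.

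Of 18 tested NF-kappaB targets, 7 rose, 3 fell and 8 did not pass, with a median of 0.54 (10 rises and 3 falls with scaling by total counts). The share called was 55.6%, against 60.7% of all tested genes. The summed level of the 21 listed genes averaged 349 CPM with CCNE1 and 346 CPM with shTMLHE 1. TNFAIP3, which shuts the pathway off, rose from 2.32, 0.935 and 0.824 CPM to 5.81, 6.14 and 6.96 CPM, and IL1B fell by 0.92 ± 0.15. Interferon response genes split 7 and 7 of 26 tested (13 rises and 5 falls with scaling by total counts), with IRF1, 22% of whose exonic bases are overlapped, at 1.12 ± 0.12 and BST2 at -1.14 ± 0.04, ISG15 at -1.21 ± 0.10 and ISG20 at -1.88 ± 0.16. Immediate early genes split 5 and 5 of 17 (10 rises and 2 falls with scaling by total counts), with KLF4 rising by 2.02 ± 0.18 and JUND falling by 1.10 ± 0.06. Of 15 apoptosis regulators 6 rose and 5 fell, with MCL1, a survival protein, at 0.91 ± 0.05 and the death-promoting relatives BAD at -1.28 ± 0.06 and BOK at -0.97 ± 0.05 (8 and 3 with scaling by total counts). Another gene overlaps 23.7% of the exonic bases of BAD. Autophagy and lysosome genes had 13 rises and 10 falls among 32 (24 and 2 with scaling by total counts), with NPC1, a lysosomal cholesterol transporter, at 0.71 ± 0.06. Splicing factors had 11 rises and 10 falls among 25 (20 and 3 with scaling by total counts), with SRSF5 at 0.93 ± 0.05 and HNRNPC at -0.71 ± 0.03.

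Matrix and mesenchymal genes mostly rose, 16 of 22 tested with 4 falls and a median of 0.64 (17 and 1 with scaling by total counts). The lowest log2 fold change among them was -0.59, and with the composition trend taken out 14 rose and 5 fell. SPARC, a collagen-binding glycoprotein, went from 574, 563 and 538 CPM to 1800.0, 1853 and 1874 CPM. COL1A1 went from 623, 591 and 602 CPM to 1500.4, 1590.3 and 1562 CPM, COL4A1 of basement membranes rose by 1.65 ± 0.04 and COL4A2 by 1.05 ± 0.03. TGFBI rose by 1.89 ± 0.07 and SNAI2, a repressor of epithelial genes, by 1.52 ± 0.19. Of 10 tested epithelial genes 5 fell and 2 rose (3 and 4 with scaling by total counts), with log2 fold changes from -1.97 to 0.57. Their median was -0.37, but with the composition trend taken out it was 0.04, with 3 falls and 1 rise. KRT18 fell by 0.75 ± 0.03. KRT7 fell by 0.57 ± 0.03, but stood at 0.04 with the composition trend taken out. SPARC was 0.85 above shTMLHE 2 and COL1A1 0.34 above it, while COL4A1 was 0.18 below it (log2 difference -0.18, edgeR adjusted p = 5.33e-05). With shTMLHE 2 SPARC was at 1016, 1034 and 1024 CPM, also above the CCNE1 libraries. The matrix and mesenchymal genes had a median of 0.94 with shTMLHE 2 over the same CCNE1 libraries, so their rise was not particular to shTMLHE 1.

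As for other cell types, of the 7 fibroblast markers PDGFRB rose by 0.83 ± 0.09 beside COL1A1, while DCN was at 0 and COL3A1, LUM and PDGFRA were at most 0.124 CPM on average in both groups. The summed level of the 7 went from 613 to 641 CPM up to 1535 to 1629 CPM, nearly all of it COL1A1. THY1, the other tested marker, did not pass at -1.33 ± 0.63 (0.672, 1.10 and 1.39 CPM with CCNE1 and 0.110, 0.553 and 0.605 CPM with shTMLHE 1; edgeR adjusted p = 0.0661), though limma-voom called it lower. The 10 leukocyte markers summed to 1.64 to 2.34 CPM with CCNE1 and 1.37 to 1.60 CPM with shTMLHE 1, and the 7 endothelial markers to 3.36 to 6.65 CPM and 4.96 to 5.92 CPM. VWF, of the endothelial list, rose by 1.31 ± 0.49 from under 1 CPM and lost its call without shTMLHE 1 replicate 2. Of 7 tested serous line markers, 1 rose and 4 fell, with a median of -0.16. The rise was that of PAX8, the lineage factor of the tissue, at 0.48 ± 0.05, and PAX8 was 1.10 above shTMLHE 2. For these markers scaling by total counts gave 3 rises and 2 falls, and removal of the composition trend 3 rises and 1 fall. MSLN passed as lower at -0.33 ± 0.04, but stood at 0.06 with scaling by total counts and at 0.20 with the composition trend taken out.

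The fold changes followed the base composition and length of the transcripts. In the decile of tested genes with the lowest GC content, 37.1% at the median, 890 genes rose and 131 fell with a median log2 fold change of 0.64. In the decile with the highest, 64.2%, 171 rose and 837 fell with a median of -0.45. By length, the shortest decile (median 810 bases) had a median of -0.53 and the longest (9324 bases) of 0.55. When the composition trend, a smooth curve on both, was taken out of each library, 8608 genes were called, of which 6851 had been called in the same direction, 315 had been called in the opposite one, and 2172 of the 9338 genes were no longer called. The part of GC content and length in the changes of any single gene was not tested.

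**Figure D4:**
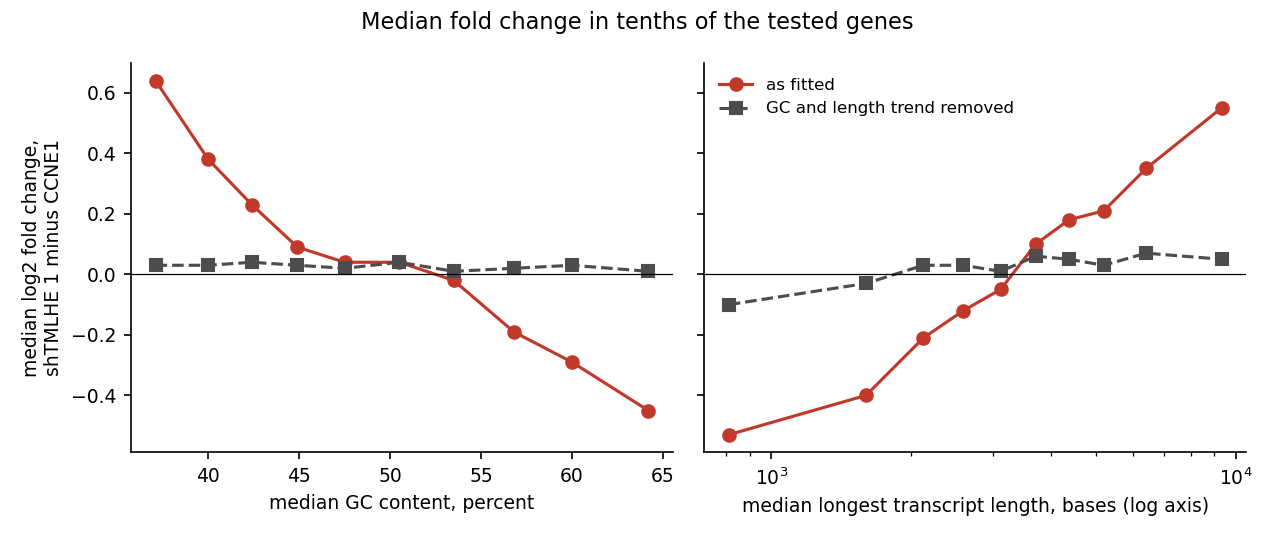
Median log2 fold change of shTMLHE 1 over CCNE1 in deciles of the tested genes, by GC content in percent on the left and by longest transcript length in bases on a log axis on the right; the red line is the main analysis and the dashed line has the composition trend taken out. The red medians run from 0.64 to -0.45 with rising GC content and from -0.53 to 0.55 with rising length.

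Along the genome, medians in 282 windows of 10 Mb ran from -0.51 to 0.96. The lowest was chromosome 19 from 40 to 50 Mb, where RPS19, RPL18 and FTL lie, with 129 falls and 24 rises among 237 genes and a GC content of 59.4%. Chromosome 11 from 60 to 70 Mb was next at -0.50, with NDUFS8, GSTP1 (-1.11 ± 0.03), OTUB1 (-1.58 ± 0.04) and VPS51 (-1.43 ± 0.04). The highest nuclear window was chromosome 7 from 80 to 90 Mb at 0.96, but with 19 tested genes, where SEMA3C (1.17 ± 0.06), DMTF1 (1.05 ± 0.11) and CROT rose and SRI fell by 0.67 ± 0.05. With the composition trend taken out those windows stood at -0.18, -0.14 and 0.45. Over the same CCNE1 libraries, shTMLHE 2 had medians of -1.16, -1.01 and 1.09 in them, so these shifts were not particular to shTMLHE 1. The mitochondrial genome had a median of 0.87, and of 0.91 with the composition trend taken out.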

How the data were processed

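RNA was sequenced from 12 libraries of Ovcar8 cells, with 6 compared here and all 12 in the fit. The authors deposited whole-number counts per gene for 58735 genes, not normalized, and FPKM, which the authors had scaled by gene length and library. The genome build GRCh38, the aligner STAR 2.6.1 and the package DESeq2 are named, without their roles, per the submitters' processing notes. Which program counted the reads, whether by strand, and how it treated reads with several matches is not given in the sources used here. Gene lengths equalled those of GENCODE 29 for 100.0% of genes, and that annotation gave coordinates, GC content and overlaps. Genes whose exons overlap others by 20% or more are marked as uncertain.

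Counts were filtered with edgeR 4.0.16's filterByExpr, which kept 15378 genes, scaled by TMM and tested by its quasi-likelihood F-test (robust, groups as the sole factor, 8 residual degrees of freedom) (R 4.3.3, limma 3.58.1). The test was also run on simulated counts in which few genes were changed, some up and some down. These differ from the libraries, where most genes changed, so that run cannot speak to the choice of scaling. Counts of replicates differed by more than sampling noise, with a chi-square per degree of freedom of 2.76 to 5.62 in the groups compared, so none was counted as a repeat. Lists are described by counts of members called and medians, with no set test.

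Genes were named by a rule: TMLHE, CCNE1, MT1E, TP53INP1 and CDKN1A; the 15 largest rises and falls with mean log2 CPM of at least 1 and no overlap between groups, and 8 of each with at least 7; up to 4 per list by smallest p, and every tested carnitine, zinc and core recombination gene; 6 of each direction apart from both CCNE1 and shTMLHE 2; and up to 4 of the 2 highest and 2 lowest windows. Some genes that the rule names are not reported here. The members and lists were chosen with earlier results of these data known. MDM2, CDK6, CCND3, E2F1, RB1, DUT, MCM2, MCM3, MCM4, MCM6, MCM7, TTK, CENPE, EP300, CREBBP, KAT2B, IDH2, TET1, TGFBI, SNAI2, MT-ND3, MT-CO2 and MT-CO3 were named outside the rule, after their values were seen. Alternatives were other scalings and filters, DESeq2 1.42.0, limma-voom, limma-trend on the deposited FPKM as log2(FPKM + 0.1) and log2(FPKM + 1), a replicate block, removal of a spline trend on GC content and transcript length, stricter thresholds and each library left out.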

Additional observations from a re-analysis of the deposited data

Results flagged for a closer look

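Of the 258 named genes, 15 had passed the edgeR test on opposite sides of the same CCNE1 libraries with the 2 hairpins. These 15 also differed in the direct contrast of the hairpins, as did 60.3% of all tested genes. The share of all tested genes on opposite sides was not counted. THAP12, RASSF3, NRAS and LPAR3 had been named for standing below both other groups, so their differences between the hairpins follow from that choice. The values here are the log2 differences of shTMLHE 1 minus shTMLHE 2, with the fold changes over CCNE1 for shTMLHE 1 and then shTMLHE 2. Genes lower than CCNE1 with shTMLHE 1 and higher with shTMLHE 2 were THAP12 (-3.64, from -2.61 and 1.03), RASSF3 (-3.05, from -2.22 and 0.83), NRAS (-2.81, from -2.29 and 0.52) and LPAR3 (-2.55, from -2.24 and 0.32). SEL1L (-2.14, from -1.36 and 0.78), HSP90AA1 (-1.64, from -0.47 and 1.17) and the zinc importers SLC39A14 (-0.71, from -0.19 and 0.52) and SLC39A9 (-0.60, from -0.46 and 0.14) took the same order, though SLC39A14 stood at 0.20 and SLC39A9 lost its call against CCNE1 with scaling by total counts. Genes higher than CCNE1 with shTMLHE 1 and lower with shTMLHE 2 were CDKN1A (1.95, from 1.13 and -0.82), MT-CO1 (1.31, from 0.79 and -0.52), PAX8 (1.10, from 0.48 and -0.63) and MT-CYB (1.05, from 0.72 and -0.32). MT-ND4 (0.93, from 0.85 and -0.08), CCNE1 (0.58, from 0.34 and -0.24) and CALR (0.46, from 0.34 and -0.12) were of this kind too. The cause of these differences was not tested.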

How the results depend on the processing

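Of 232 named genes that changed, 181 kept the call and its direction under every alternative in which they were tested. The count of changed genes was 7969 to 10334 under the alternatives, apart from the test against a fold of 1.5, which left 3728 genes (1789 higher and 1939 lower) and 3289 differing between the hairpins. Scaling by total counts gave 7844 rises and 2490 falls. On log2(FPKM + 1) the changes of at least 2-fold numbered 1076, since that pseudocount shrinks low genes. Without 1 library the changed genes numbered 8629 to 9124, and leaving out a replicate ended the call of SLC22A4, SLC39A7, BARD1, RAD51D or VWF among named genes. Same-numbered replicates of the groups had correlations of 0.001, -0.015 and -0.046, so no pairing by number was seen in the counts. These values cannot show whether same-numbered libraries were prepared together. A replicate block gave 9231 changed genes and ended the call of SLC39A7 alone among named genes.

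Some list medians, less the median of all genes, changed sign. Core homologous recombination stood at -0.19 with the composition trend taken out (-0.19 with the replicate block as well) and -0.02 without CCNE1 replicate 3. The interferon response stood at -0.12 (-0.12), and at -0.04 to -0.01 without 1 of 3 libraries. Immediate early genes stood at 0.16 (0.16), at 0.01 with at least 50 counts in 3 libraries, and at 0.03 to 0.08 without 1 of 4 libraries. Apoptosis regulators stood at 0.42 (0.44) and at 0.07 to 0.09 without CCNE1 replicate 1 or 2, and the serous line markers at 0.18 (0.17).

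Among genes called with or without scaling by total counts, log2 fold changes that became positive were SHMT1 0.19, SLC25A29 0.32, SLC39A14 0.20, SLC39A13 0.28, SLC30A6 0.32, UIMC1 0.03, RAD51D 0.10, RAD54L 0.22 (25.1% of its exonic bases overlap another gene), RPA1 0.35, EXO1 0.28, RAD51C 0.37, PDK2 0.01 (38.6% overlapped), MSLN 0.06, MT-CO2 0.11 and MT-CO3 0.14. With the composition trend taken out, and in parentheses with the replicate block as well, signs changed among called genes for SLC39A13 0.23 (0.23), BRIP1 -0.12 (-0.11), DNA2 -0.37 (-0.38), MRE11 -0.59 (-0.59), FOSL1 0.13 (0.13), KRT7 0.04 (0.04), MSLN 0.20 (0.20), MT-CO2 0.08 (0.08) and MT-CO3 0.11 (0.11). The cause was not tested.

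Genes near 1 CPM in the CCNE1 libraries, such as MT1M and TP53INP1, rest on few counts, and their fold changes moved most when 1 CCNE1 library was left out.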
